A study of Mus musculus with 11 samples.

Results

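Interferon-stimulated genes were measured in 11 RNA-seq libraries of mouse aorta. The set holds 47 genes known to be induced by type I or type II interferon, found by symbol among the 27179 genes of the count table. KO_HFD_LNAME holds 3 libraries of Mpst knockout mice and WT_HFD_LNAME 4 libraries of C57BL6/J wild-type mice. Both groups ate a diet with 45% of calories as fat for 15 weeks and were then given L-NAME, which blocks nitric oxide synthases, for 5 additional weeks. WT_CD holds 4 libraries of chow-fed wild-type mice, with 10% of calories as fat, for which the labels state 15 weeks. All mice were 6 to 7 weeks old at the start. The labels do not say whether the chow mice were collected at 15 weeks or later. Age at collection may therefore differ between the chow group and the other groups. The label "Mpst knockout" names no promoter, allele or founder line. MPST (mercaptopyruvate sulfurtransferase) makes hydrogen sulfide and persulfides, and the series asks what diet with L-NAME, and loss of MPST on top of it, does to gene expression in the vessel.

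Interferons are secreted proteins that cells release when they sense foreign or misplaced nucleic acid, or when T and NK cells are activated. Type I interferon acts through a receptor with JAK kinases, which activates a factor that holds STAT2 and IRF9 and binds the interferon-stimulated response element (ISRE). Interferon gamma acts through a receptor of its own and through gamma-activated sites (GAS) in DNA. The induced genes block viral entry, degrade or sequester viral RNA, attach ISG15 to proteins, attack pathogen vacuoles with GTPases and load peptides on MHC class I. Many are present at a low level without infection.

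Whole aorta was taken after the fat around the vessel was cleared. All 8 smooth muscle markers had counts in every library, and they summed to 17132 to 39436 CPM. Markers of adipocytes summed to 1011 to 19769 CPM, so the libraries differed widely in fat signal. The adipocyte sum was above the smooth muscle sum in WT_HFD_LNAME 3 (19769 against 17132 CPM) and WT_CD 3 (17805 against 17401 CPM). Library totals ran from 8665970 to 15340700 counts, so that 3 counts were worth 0.170 to 0.358 CPM (counts scaled to a common library size). Mpst itself held 3 to 5 counts in the knockout libraries, against 317 to 431 in WT_HFD_LNAME and 265 to 532 in WT_CD. The labels do not state that the libraries are from separate animals. The p-values therefore describe only the variation among these libraries, which may be technical. In whole tissue, fewer cells of a type and less RNA per cell cannot be told apart.

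All 47 members had counts in every library and passed the filter on low counts. Their mean level over the 11 libraries was 10 CPM or more for 31 members and under 5 CPM for 11. Per base of transcript, Ifi27l2a stood highest at 1792 TPM (the level per transcript length, scaled to a common total), followed by Ifi27 at 1093, Ifitm2 at 971 and Ifitm3 at 742. More than 99.0% of the tested genes lay below each of those 4. Ifitm2 and Ifitm3 encode membrane proteins that restrict viral entry, and both are short genes with close copies nearby. The lowest members per base were Oas3 at 0.236 TPM, which encodes an RNA-activated synthase, and Mx1 at 0.753 TPM. Background knowledge on Mx1, a dynamin-like antiviral GTPase, is that most laboratory strains carry a defective allele. The narrowest spread was 0.41 on the log2 scale for Ifi35, and the widest was 3.93 for Ifi27l2a, each as the range of log2(CPM + 0.5) over the 11 libraries.

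**Figure D1:**
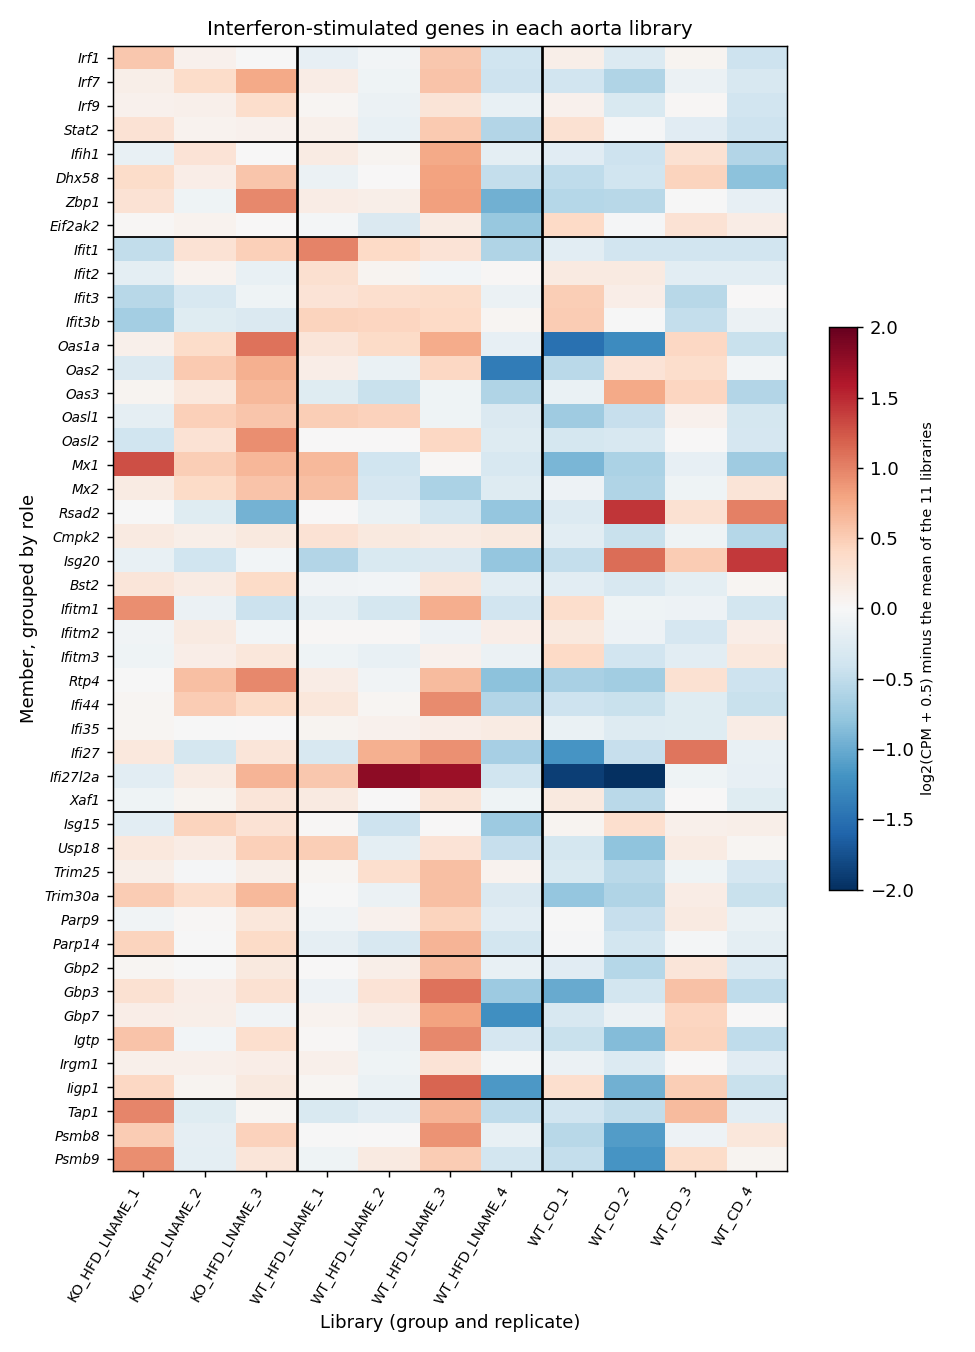
Level of each of the 47 members (rows, grouped by role) in each of the 11 libraries (columns), as log2(CPM + 0.5) minus the mean of that member over the libraries. WT_HFD_LNAME 3 is the highest library for 15 of 47 members, against 8.82% of all tested genes. WT_HFD_LNAME 4 and WT_CD 2 are the lowest for 13 and 15 members, against 10.05% and 10.9% of all tested genes.

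In WT_HFD_LNAME against WT_CD, most members had slightly higher levels, but no single member passed the test. The edgeR quasi-likelihood test called 0 of 47 members higher and 0 lower, where it called 1.4% of the 14303 tested genes higher and 0.0839% lower. At an unadjusted p under 0.05 there were 6 members higher and 3 lower, against a background of 9.13% higher and 5.98% lower. DESeq2 called 3 higher (Ifi27l2a, Trim25 and Cmpk2) and 1 lower (Isg20), against a background of 4.41% and 0.828%. The authors' deposited table called 2 higher (Ifi27l2a and Trim25) and 1 lower (Isg20), against 3.43% and 0.404%. The median log2 fold change of the members was 0.24, where that of all tested genes was -0.03. It lay above 0 for 40 of 47 members (85.1%), against 46.1% of all tested genes.

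That median depended on single libraries. It was 0.12 without WT_HFD_LNAME 3, 0.41 without WT_HFD_LNAME 4 and 0.37 without WT_CD 3. Without both WT_HFD_LNAME 2 and 3, a setting chosen after the data were seen, it was 0.09. WT_CD 1 and 2 stood apart in the share of counts on Rn45s, a ribosomal RNA gene, at 10.1% and 17.4%, against 0.815% to 2.98% in the other libraries. Without both, the median was 0.18. The share on mitochondrial genes ran from 11.7% to 27.8% in WT_HFD_LNAME and from 7.73% to 23.3% in WT_CD. The 8 endothelial markers, none at 0 in any library, summed to 663, 521, 953 and 946 CPM in WT_HFD_LNAME, against 199.7, 402, 445 and 394 CPM in WT_CD, without overlap. In KO_HFD_LNAME they summed to 588 to 682 CPM, also above every WT_CD library. The 10 cardiac muscle markers summed to 88.8, 128, 946 and 2481 CPM in WT_HFD_LNAME 1 to 4. They summed to 76.6 to 147 CPM in KO_HFD_LNAME and 55.5 to 181 CPM in WT_CD. The part of endothelial cells, of cardiac muscle and of these RNA shares in the members' levels was not tested.

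Trim25 encodes a ubiquitin and ISG15 ligase that activates the RNA sensor RIG-I (chr11:88999403-89020294, GRCm38.p6). Its level was 17.2, 21.2, 25.7 and 17.7 CPM in WT_HFD_LNAME 1 to 4, against 13.5, 11.3, 15.7 and 13.1 CPM in WT_CD 1 to 4. Every WT_HFD_LNAME library was above every WT_CD library. The log2 fold change was 0.61 (SE 0.15, 95% interval 0.26 to 0.96, adjusted p = 0.0755 in edgeR and 0.0113 in DESeq2). Cmpk2, a mitochondrial nucleotide kinase gene, measured 9.15, 8.56, 8.34 and 8.56 CPM in WT_HFD_LNAME, against 6.32, 5.30, 6.93 and 4.83 CPM in WT_CD. Here too the groups did not overlap, and the log2 fold change was 0.57 (SE 0.14, adjusted p = 0.0779 in edgeR and 0.0155 in DESeq2). In KO_HFD_LNAME, Cmpk2 lay in the same narrow band at 8.47, 8.04 and 8.52 CPM.

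Among the 47 members, Trim25 and Cmpk2 were the 2 whose WT_HFD_LNAME libraries lay wholly above WT_CD, where 5.31% of tested genes did so. Isg15 was the 1 member wholly below, where 2.54% of tested genes were. Isg15 encodes the ubiquitin-like protein that is conjugated to other proteins after interferon. It had 7.77, 5.55, 7.67 and 4.38 CPM in WT_HFD_LNAME, against 7.87, 9.70, 8.15 and 8.26 CPM in WT_CD. The gap between the groups was 7.77 against 7.87 CPM at its narrowest, and the log2 fold change was -0.42 (SE 0.22, adjusted p = 0.391).

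Ifi27l2a, a small mitochondrial membrane protein gene, had the largest fold change of the members. Its level was 368, 873, 828 and 192 CPM in WT_HFD_LNAME, against 68.2, 56.7, 237 and 225 CPM in WT_CD. WT_HFD_LNAME 2 and 3 stood far above the others, and WT_HFD_LNAME 4 lay below WT_CD 3 and 4. The log2 fold change was 1.95 (SE 0.58, adjusted p = 0.129 in edgeR and 0.0119 in DESeq2), and 0.93 without WT_HFD_LNAME 2 and 3. Mesothelial markers, 6 genes in all, summed to 1.46, 53.6, 61.4 and 2.19 CPM in WT_HFD_LNAME, against 0.477 to 2.53 CPM in WT_CD. In WT_CD 1 and 2, 3 and 4 of the markers were at 0. In KO_HFD_LNAME 1 to 3 the mesothelial markers summed to 19.9, 32.6 and 175 CPM. Adipocyte markers, 8 genes with none at 0, summed to 5550, 13027, 19769 and 3931 CPM in WT_HFD_LNAME, against 1011, 3746, 17805 and 7490 CPM in WT_CD. Their part in the Ifi27l2a difference was not tested. Ifi27, whose RefSeq span overlaps that of Ifi27l2a, had 469, 954, 1095 and 366 CPM in WT_HFD_LNAME, against 257, 422, 1229 and 528 CPM in WT_CD. Those groups overlapped over nearly their whole range (log2 fold change 0.24, SE 0.48, adjusted p = 0.867).

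Isg20 and Rsad2 ran the other way. Isg20 encodes a 3' to 5' exonuclease that degrades single-stranded RNA (chr7:78913396-78920396, GRCm38.p6). Its level was 6.24, 7.72, 7.84 and 5.41 CPM in WT_HFD_LNAME, against 6.80, 21.4, 13.9 and 26.5 CPM in WT_CD. WT_CD 1 lay among the WT_HFD_LNAME libraries and the other 3 chow libraries lay above them all. The log2 fold change was -1.34 (SE 0.34, adjusted p = 0.0789 in edgeR and 0.00782 in DESeq2), and edgeR called the gene without WT_CD 1, at -1.60 (adjusted p = 0.0319). Rsad2 encodes viperin, a radical SAM enzyme that makes a chain-terminating nucleotide. It had 17.4, 15.8, 13.3 and 9.86 CPM in WT_HFD_LNAME, against 14.2, 47.5, 21.5 and 35.1 CPM in WT_CD. Again WT_CD 1 was the low chow library, and the log2 fold change was -1.07 (SE 0.35, adjusted p = 0.166). Erythroid markers, 6 globin and red cell genes with none at 0 in any library, summed to 2331, 1682, 1177 and 1297 CPM in WT_HFD_LNAME, against 901, 10213, 6387 and 10331 CPM in WT_CD. Their part in the Isg20 and Rsad2 differences was not tested.

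Ifit1, whose protein binds viral RNA lacking cap methylation, had 21.5, 14.2, 12.9 and 6.85 CPM in WT_HFD_LNAME, against 9.07, 8.0, 8.05 and 8.05 CPM in WT_CD. The chow libraries were nearly equal while the WT_HFD_LNAME libraries spanned both sides of them. The log2 fold change was 0.74 (SE 0.31, adjusted p = 0.301).

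Transcription factors and sensors held no called member either. All 4 transcription factors (Irf1, Irf7, Irf9 and Stat2) had a log2 fold change above 0, with a median of 0.15. Irf7, the factor that amplifies type I interferon, was the largest at 0.46 (SE 0.23, adjusted p = 0.374). Irf1, the factor with the highest CPM and an early target of interferon gamma, had 24.2, 26.3, 39.7 and 20.6 CPM in WT_HFD_LNAME, against 29.6, 22.5, 28.3 and 20.4 CPM in WT_CD. Its groups overlapped (log2 fold change 0.14, SE 0.22), and the value was -0.09 without WT_HFD_LNAME 3. The 4 sensors had a median log2 fold change of 0.44, the highest of the 6 roles. Of them Ifih1 (MDA5), Dhx58 (LGP2) and Zbp1 lay above 0, at 0.45 (SE 0.26), 0.43 (SE 0.38) and 0.54 (SE 0.43). Eif2ak2, which encodes the RNA-activated kinase PKR, had 19.2, 15.9, 22.0 and 11.4 CPM in WT_HFD_LNAME, against 26, 19.4, 24.1 and 21.9 CPM in WT_CD. WT_HFD_LNAME 3 lay above WT_CD 2 and 4 while the other WT_HFD_LNAME libraries lay below all chow libraries, and the log2 fold change was -0.42 (SE 0.18, adjusted p = 0.311).

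**Figure D2:**
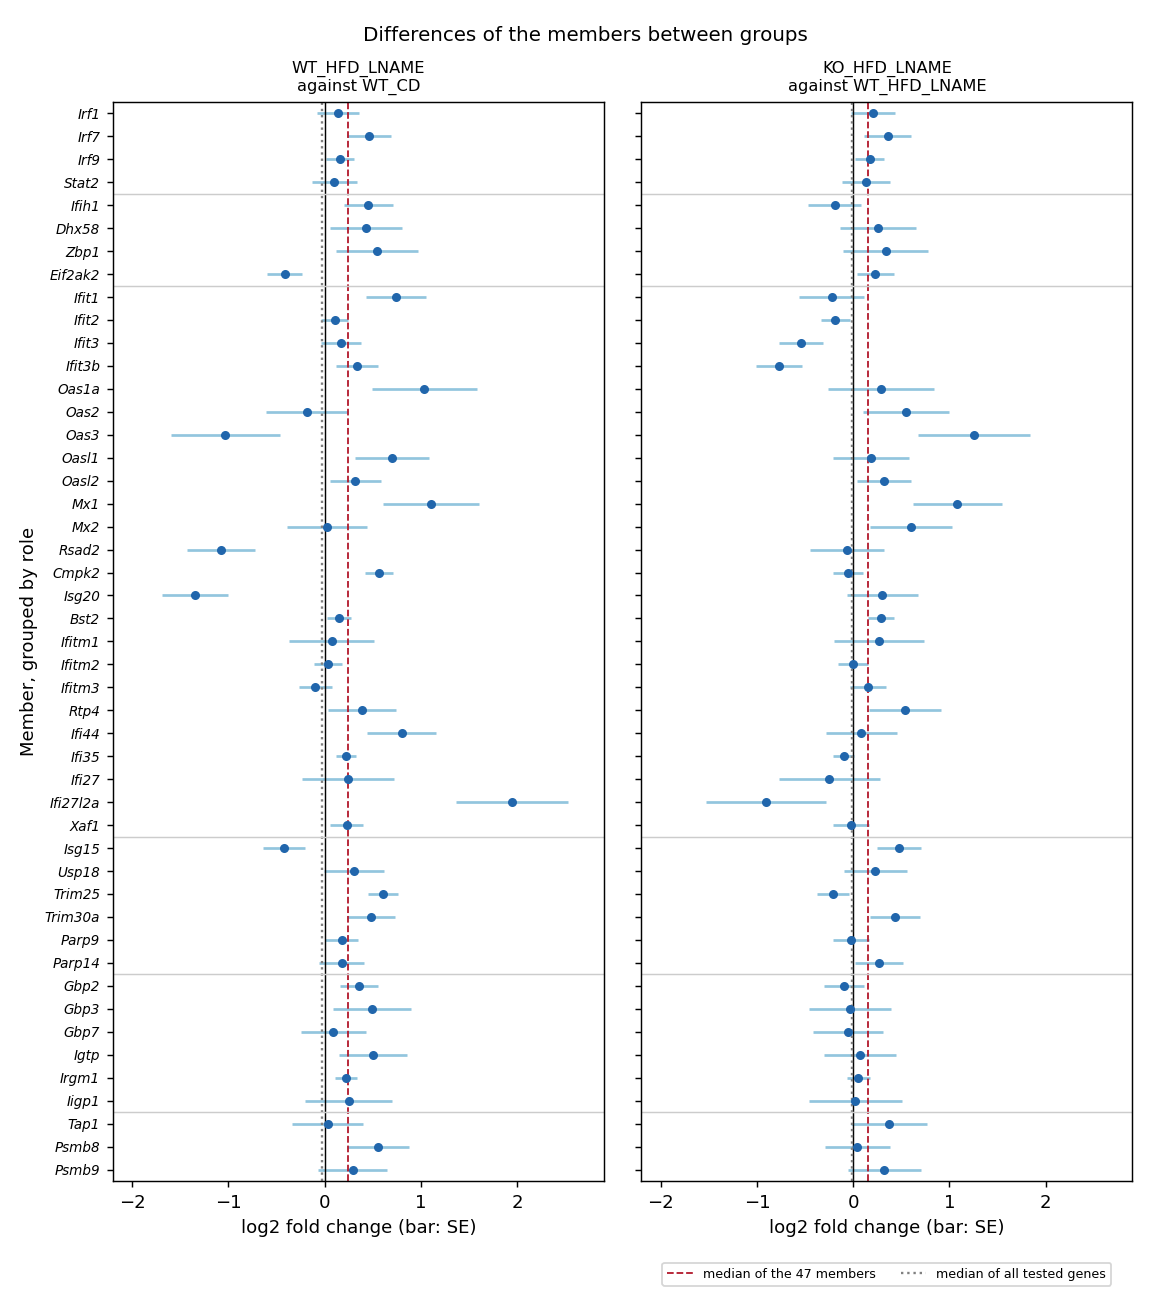
Log2 fold change of each of the 47 members (points, with SE as bars) in WT_HFD_LNAME against WT_CD (left) and KO_HFD_LNAME against WT_HFD_LNAME (right), with dashed and dotted lines at the median of the members and of all tested genes. The 2 comparisons share the WT_HFD_LNAME libraries, and no member was called in either.

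Loss of MPST on top of diet and L-NAME gave no called member. In KO_HFD_LNAME against WT_HFD_LNAME edgeR called 0 of 47 members higher and 0 lower, where it called 0.00699% of tested genes in each direction, 1 gene each. At an unadjusted p under 0.05 there were 1 member higher and 2 lower (background 3.25% and 1.87%). DESeq2 called 0 and 0 (background 0.108% and 0.134%), and the authors' deposited table called 0 and 0 (0.251% and 0.152%). The median log2 fold change was 0.16, where that of all tested genes was -0.01. It lay above 0 for 30 of 47 members (63.8%), against 47.7% of all tested genes. The median was 0.04 without KO_HFD_LNAME 1, 0.05 without KO_HFD_LNAME 3, 0.21 without KO_HFD_LNAME 2, 0.04 without WT_HFD_LNAME 4 and 0.37 without WT_HFD_LNAME 3.

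Ifit3b and Ifit3 had the 2 smallest p-values of the members, both on the lower side. They encode proteins of the IFIT family that bind RNA and antiviral signalling proteins, and they lie next to each other on chromosome 19. Ifit3b had 5.00, 6.96 and 6.67 CPM in KO_HFD_LNAME 1 to 3, against 11.5, 11.3, 11.1 and 8.49 CPM in WT_HFD_LNAME 1 to 4. The groups did not overlap, and the log2 fold change was -0.77 (SE 0.24, 95% interval -1.32 to -0.22, adjusted p = 0.762 in edgeR and 0.246 in DESeq2). The authors' deposited table gives Ifit3b an apparently shrunken log2 fold change of -0.63 with an adjusted p of 0.0877. Ifit3 had 19.8, 23.4 and 27.6 CPM in KO_HFD_LNAME, against 35.5, 37.0, 38.0 and 27.0 CPM in WT_HFD_LNAME. KO_HFD_LNAME 3 lay just above WT_HFD_LNAME 4, and the log2 fold change was -0.54 (SE 0.23, adjusted p = 0.939). The chow libraries, at 5.81 to 11.9 CPM for Ifit3b and 19.8 to 41.4 CPM for Ifit3, overlapped both other groups.

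The windows before the RefSeq transcript starts of this pair show how alike the DNA is upstream of those starts. The sequences are from RefSeq on GRCm38.p6, 250 bases up to that start, at chr19:34583279-34583528, plus strand, for Ifit3 and chr19:34607707-34607956, plus strand, for Ifit3b. These starts lie 410 and 427 bases inside the RefSeq gene spans, which begin further upstream, and within 2 and 13 bases of the GENCODE M21 transcript starts. Capitals mark the ISRE core, spelled GAAA, any 2 bases and GAAA again, on either strand.
Ifit3: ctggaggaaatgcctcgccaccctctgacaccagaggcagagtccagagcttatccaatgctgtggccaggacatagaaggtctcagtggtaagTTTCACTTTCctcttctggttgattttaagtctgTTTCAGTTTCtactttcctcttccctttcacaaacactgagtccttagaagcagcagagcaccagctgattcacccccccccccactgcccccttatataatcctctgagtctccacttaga
Ifit3b: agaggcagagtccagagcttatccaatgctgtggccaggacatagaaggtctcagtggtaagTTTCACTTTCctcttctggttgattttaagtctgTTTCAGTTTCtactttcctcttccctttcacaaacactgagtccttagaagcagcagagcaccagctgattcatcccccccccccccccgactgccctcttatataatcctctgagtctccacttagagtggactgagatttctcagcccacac
Aligned to each other, the windows shared 217 of 218 paired bases (99.5%) with an unbroken run of 169 bases. That share leaves out 6 bases in gaps and the 32 and 26 bases at the ends of the Ifit3 and Ifit3b windows that had no partner. Each held 2 ISRE cores. The transcribed sequences of the pair were not compared. How reads with several alignments were counted is not given in the sources used here, so the split between Ifit3 and Ifit3b is uncertain. Ifit1 and Ifit2, the more distant relatives nearby, had log2 fold changes of -0.22 (SE 0.33) and -0.19 (SE 0.15) in KO_HFD_LNAME.

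On the higher side, Mx1 had 2.92, 1.47 and 1.72 CPM in KO_HFD_LNAME, against 1.70, 0.565, 0.927 and 0.616 CPM in WT_HFD_LNAME. Only WT_HFD_LNAME 1 reached into the knockout range (log2 fold change 1.08, SE 0.46, adjusted p = 0.945). Oas3 was the 1 member whose KO_HFD_LNAME libraries lay wholly above WT_HFD_LNAME, where 4.41% of tested genes did so. It had 0.616, 0.736 and 1.17 CPM in KO_HFD_LNAME, against 0.405, 0.282, 0.506 and 0.205 CPM in WT_HFD_LNAME, a level near the floor of 3 counts (log2 fold change 1.25, SE 0.58, adjusted p = 0.95). WT_CD overlapped both groups for Oas3. Ifit3b and Ifi35 were the 2 members wholly below, where 3.46% of tested genes were.

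Ifi35 spanned only 41.3 to 42.9 CPM in KO_HFD_LNAME, against 43.5 to 46.7 CPM in WT_HFD_LNAME (log2 fold change -0.10, SE 0.11). Bst2 encodes tetherin, which holds budding virus at the cell surface. It had 45.6, 42.9 and 50 CPM in KO_HFD_LNAME, against 36.3, 36.7, 45.2 and 33.1 CPM in WT_HFD_LNAME. WT_HFD_LNAME 3 fell inside the knockout range, and the log2 fold change was 0.29 (SE 0.13, adjusted p = 0.95). Isg15 had 6.46, 10.5 and 9.42 CPM in KO_HFD_LNAME, against 7.77, 5.55, 7.67 and 4.38 CPM in WT_HFD_LNAME, with overlap (log2 fold change 0.48, SE 0.23, adjusted p = 0.95).

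The members named in the chow comparison had no called difference between KO_HFD_LNAME and WT_HFD_LNAME. Isg20 was 8.70, 7.19 and 9.28 CPM and Rsad2 17.2, 14.6 and 8.73 CPM in KO_HFD_LNAME, with log2 fold changes of 0.30 (95% interval -0.54 to 1.15) and -0.06 (-0.95 to 0.82). Trim25 was 18.2, 16.5 and 18.3 CPM (log2 fold change -0.21, SE 0.16). Ifi27l2a was 218, 284 and 405 CPM in KO_HFD_LNAME, between the high and low WT_HFD_LNAME libraries. Its log2 fold change was -0.90 (SE 0.62, adjusted p = 0.95), and 0.11 without WT_HFD_LNAME 2 and 3.

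**Figure D3:**
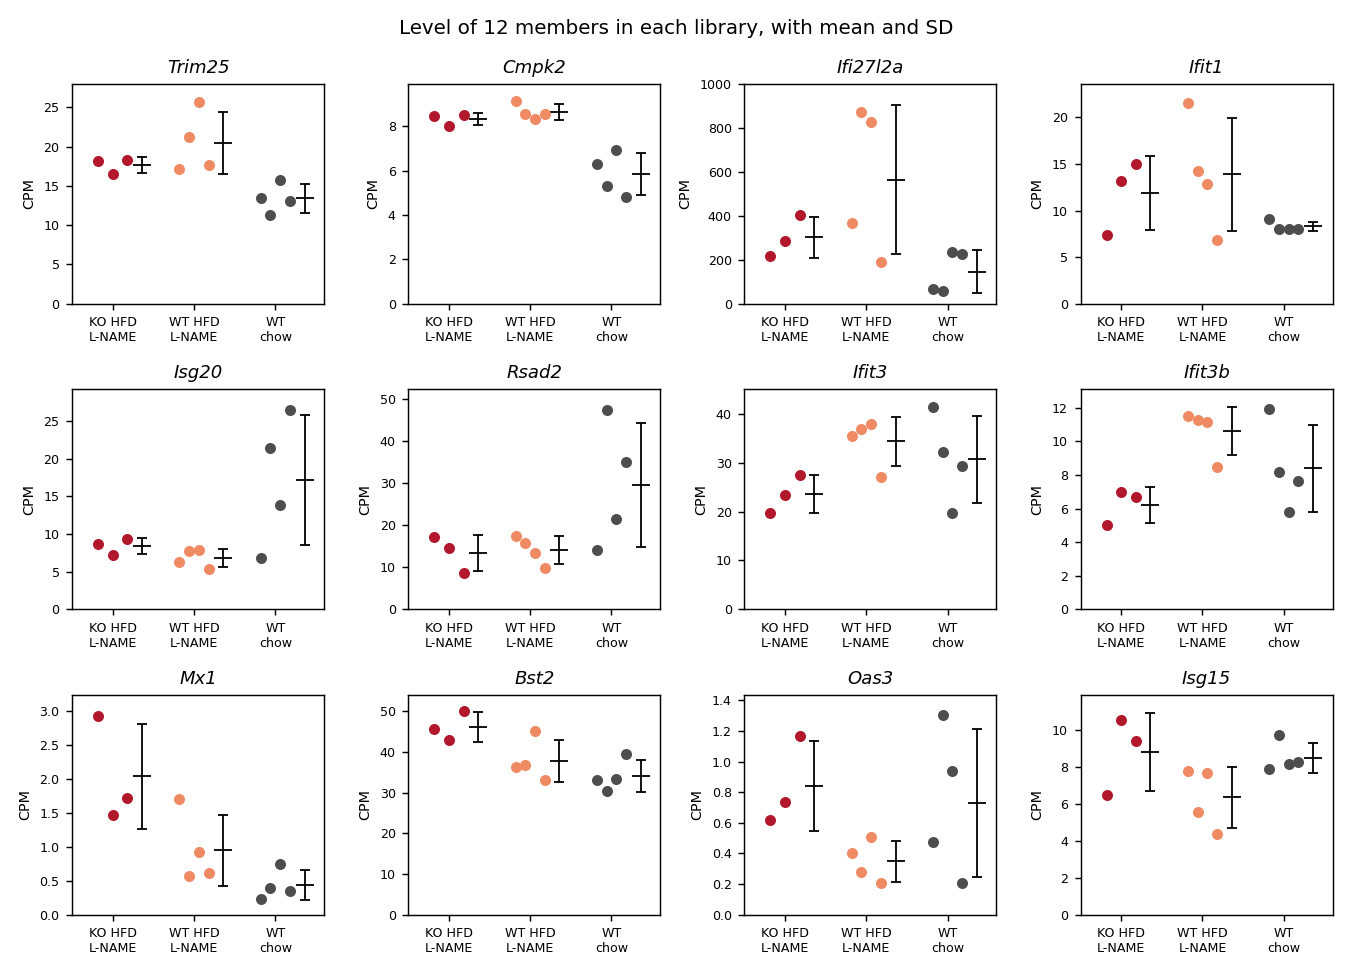
CPM of 12 members in each library (points) with mean and SD (bars) per group. The panels of Cmpk2, Trim25, Isg15, Ifit3b and Oas3 show groups without overlap in 1 of the 2 main comparisons. Those of Isg20 and Rsad2 show WT_CD 1 among the libraries of the other groups.

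The 6 interferon-gamma GTPases shared their highest library. All 6 (Gbp2, Gbp3, Gbp7, Igtp, Irgm1 and Iigp1) were highest in WT_HFD_LNAME 3. Their mean log2(CPM + 0.5) was 4.58, 4.38 and 4.50 in KO_HFD_LNAME, against 4.35, 4.36, 5.14 and 3.72 in WT_HFD_LNAME and 4.02, 3.80, 4.69 and 4.0 in WT_CD. Adipocyte markers summed to 19769 CPM in WT_HFD_LNAME 3 and 17805 CPM in WT_CD 3, the libraries with the highest means. They summed to 13027 CPM in WT_HFD_LNAME 2, where the GTPase mean was 4.36. The part of adipocytes in these levels was not tested. Gbp2, the member of the family with the highest CPM, had 39.4, 38.2 and 43.7 CPM in KO_HFD_LNAME, against 38.5, 41.5, 58.7 and 34.4 CPM in WT_HFD_LNAME and 32.7, 25.5, 45.2 and 31.7 CPM in WT_CD. Iigp1 was 21.2, 16.5 and 18.2 CPM in KO_HFD_LNAME, against 16.3, 14.4, 36.1 and 6.85 CPM in WT_HFD_LNAME and 20.0, 7.90, 22.4 and 11.5 CPM in WT_CD. WT_HFD_LNAME thus held both the highest and the lowest library for Iigp1. The family's log2 fold changes lay between 0.09 and 0.50 in WT_HFD_LNAME against WT_CD and between -0.10 and 0.07 in KO_HFD_LNAME against WT_HFD_LNAME, with none called. The family's mean was 4.39 ± 0.58 in WT_HFD_LNAME, against 4.13 ± 0.39 in WT_CD (SD, n = 4 each). Single libraries moved that difference both ways. The WT_HFD_LNAME mean was 4.14 ± 0.37 without WT_HFD_LNAME 3 and 4.61 ± 0.45 without WT_HFD_LNAME 4, and the WT_CD mean was 3.94 ± 0.12 without WT_CD 3 (SD, n = 3 each).

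Tap1, which carries peptides into the endoplasmic reticulum, and Psmb8 and Psmb9, subunits of the immunoproteasome, did not share 1 highest library. Psmb8 had 36.3, 22.5 and 35.3 CPM in KO_HFD_LNAME, against 25.4, 25.5, 47.8 and 22.9 CPM in WT_HFD_LNAME and 17.2, 11.5, 23.8 and 29.8 CPM in WT_CD. Psmb8 was highest in WT_HFD_LNAME 3, and Tap1 and Psmb9 were highest in KO_HFD_LNAME 1, at 29.6 and 23.3 CPM. Exons of Tap1 and Psmb9 overlap on opposite strands, and whether counting used strand is not given in the sources used here.

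Markers of lymphocytes differed between the groups as well as between libraries. The 12 T and NK cell markers summed to 59.9, 13.0 and 16.0 CPM in KO_HFD_LNAME, against 4.37, 4.33, 7.92 and 4.52 CPM in WT_HFD_LNAME and 1.91 to 4.12 CPM in WT_CD. No group overlapped another in these sums. None of the 12 was at 0 in a KO_HFD_LNAME library, while 5 were at 0 in WT_CD 1. The 10 B and plasma cell markers summed to 661, 160 and 171 CPM in KO_HFD_LNAME, against 75.2, 71.3, 431 and 133 CPM in WT_HFD_LNAME and 11.2 to 29.9 CPM in WT_CD. For them, every KO_HFD_LNAME and WT_HFD_LNAME library was above every WT_CD library. The 12 macrophage and myeloid markers, none at 0, summed to 447 to 781 CPM in KO_HFD_LNAME, against 267 to 481 CPM in WT_HFD_LNAME and 266 to 567 CPM in WT_CD. KO_HFD_LNAME 1 and WT_HFD_LNAME 3, the highest libraries for these B cell markers, also had the highest mean over Tap1, Psmb8 and Psmb9, at a log2(CPM + 0.5) of 4.90 and 4.79. WT_CD 3 had the next highest mean, at 4.39, with its B and plasma cell markers at 13.8 CPM. The part of these cells in the members' levels was not tested.

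**Figure D4:**
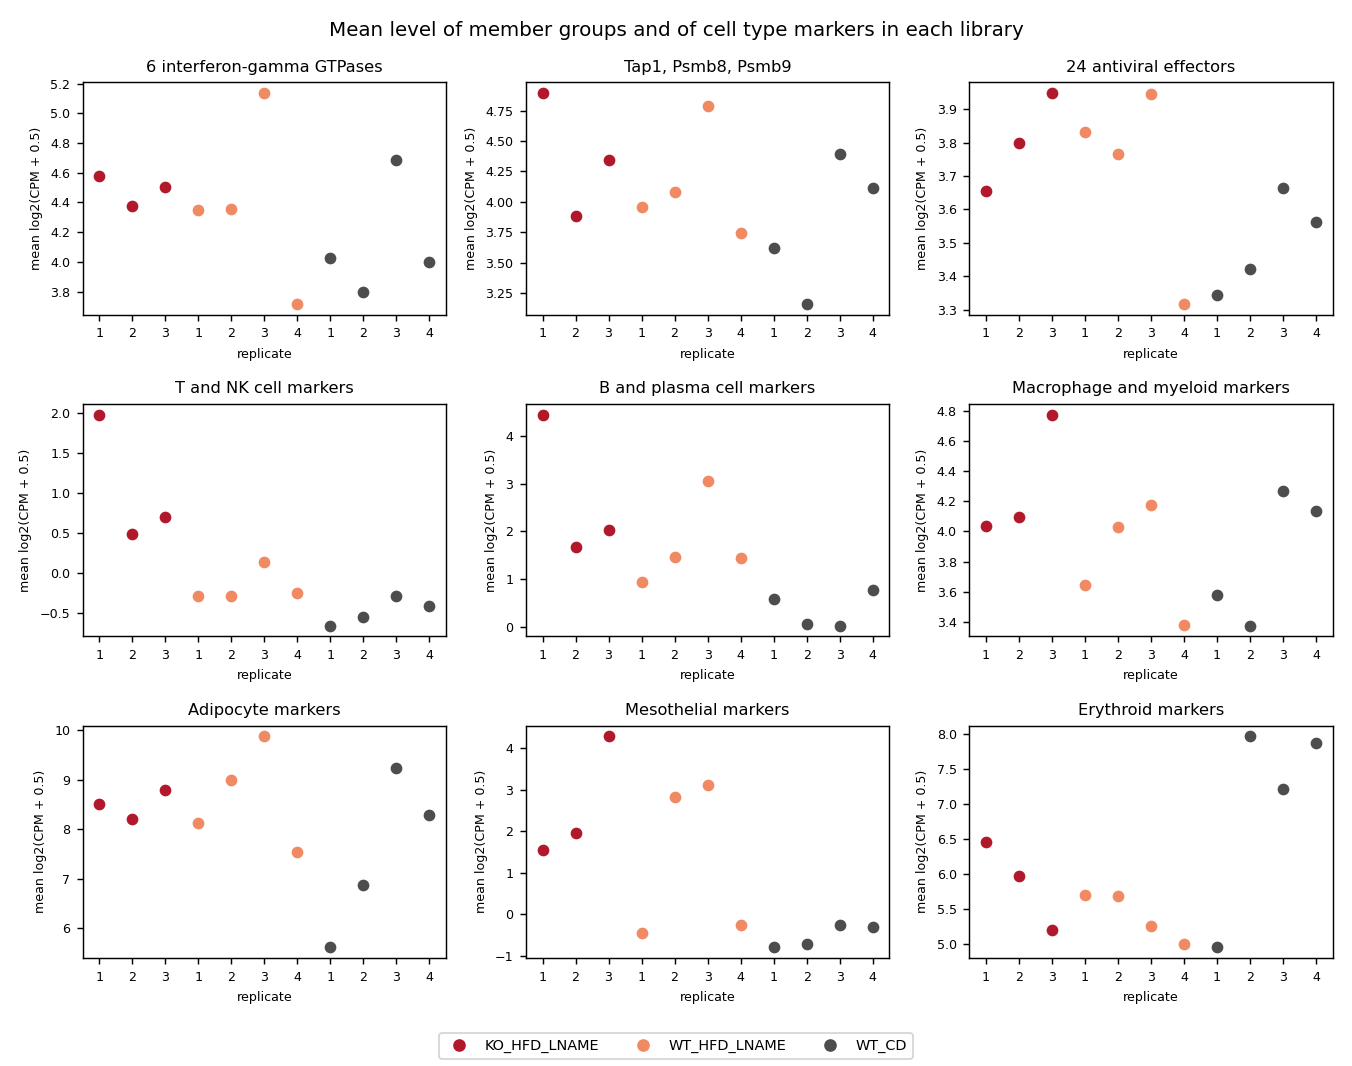
Mean log2(CPM + 0.5) of 3 groups of members (top row) and of 6 lists of cell type markers in each library, with each group's replicates on the x axis and an axis range of its own per panel that does not start at 0. The GTPase panel peaks at WT_HFD_LNAME 3 (5.14), and the T and NK cell panel at KO_HFD_LNAME 1.

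In KO_HFD_LNAME against WT_CD, the comparison that joins diet, L-NAME and genotype, edgeR again called 0 members higher and 0 lower, where it called 0.287% and 0.028% of tested genes. At an unadjusted p under 0.05 there were 11 members higher and 2 lower (background 8.55% and 4.75%). DESeq2 called Mx1 (adjusted p = 0.0107) and Trim30a (adjusted p = 0.0429) higher and 0 lower (background 2.8% and 0.67%). The KO_HFD_LNAME libraries lay wholly above WT_CD for 9 members, namely Irf7, Mx1, Cmpk2, Bst2, Ifi44, Trim25, Trim30a, Parp14 and Irgm1, and wholly below for 0, where 7.86% and 5.19% of tested genes did so. The median log2 fold change of the members was 0.36, where that of all tested genes was -0.04. It lay above 0 for 40 of 47 members (85.1%), against 44.3% of all tested genes.

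Mx1 had 2.92, 1.47 and 1.72 CPM in KO_HFD_LNAME, against 0.239, 0.400, 0.749 and 0.350 CPM in WT_CD, with 2 counts in its lowest library (log2 fold change 2.19, SE 0.50, adjusted p = 0.0941 in edgeR). Trim30a, a ubiquitin ligase gene with close copies in the mouse genome, had 14.0, 12.5 and 15.5 CPM in KO_HFD_LNAME, against 5.49, 6.20, 10.8 and 7.0 CPM in WT_CD. Its groups did not overlap (log2 fold change 0.92, SE 0.26, adjusted p = 0.162 in edgeR). Irf7 had 12, 14.4 and 19.0 CPM in KO_HFD_LNAME, against 8.35, 7.10, 10.2 and 8.75 CPM in WT_CD (log2 fold change 0.82, SE 0.24, adjusted p = 0.176). This comparison shares its libraries with the comparisons above and is not independent of them.

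RefSeq windows from 250 bases before to 50 bases after the start were matched for 35 of the 47 members. The ISRE core (GAAA, any 2 bases, GAAA), searched on both strands, was in a window of 19 of the 35 (54.3%), against 3.99% of all 27025 genes with a window. The GAS core TTCNNNGAA was in 11 of 35 (31.4%), against 9.55% of all genes, and in 2 members a match to one overlapped a match to the other. All 5 GTPase genes with a window held the ISRE core and none of the 3 peptide processing genes did. A match is a description of the letters in the window and no sign of binding.

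Rsad2 and Cmpk2 are neighbours on chromosome 12, transcribed away from each other, with 12664 bases between their annotated spans. Their log2 fold changes in WT_HFD_LNAME against WT_CD had opposite signs, as given above. The window of Rsad2 (chr12:26456453-26456702, minus strand) held 1 ISRE core and that of Cmpk2 (chr12:26468965-26469214, plus strand) held none. The window of Isg15 (chr4:156200819-156201068, minus strand) held 3 overlapping cores. The start used for Cmpk2 lies 98 bases inside its RefSeq gene span. The 3 windows are shown because these genes had fold changes of unlike sign in that comparison, with the cores in capitals.
Rsad2: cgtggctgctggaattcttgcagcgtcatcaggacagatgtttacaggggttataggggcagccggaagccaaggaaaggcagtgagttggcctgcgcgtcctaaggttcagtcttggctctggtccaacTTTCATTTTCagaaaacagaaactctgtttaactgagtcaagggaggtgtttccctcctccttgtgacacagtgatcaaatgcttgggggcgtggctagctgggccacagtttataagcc
Cmpk2: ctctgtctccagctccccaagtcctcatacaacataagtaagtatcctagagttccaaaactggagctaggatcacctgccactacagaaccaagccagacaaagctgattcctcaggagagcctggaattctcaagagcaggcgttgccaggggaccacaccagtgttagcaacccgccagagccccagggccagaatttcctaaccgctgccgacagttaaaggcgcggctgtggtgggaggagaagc
Isg15: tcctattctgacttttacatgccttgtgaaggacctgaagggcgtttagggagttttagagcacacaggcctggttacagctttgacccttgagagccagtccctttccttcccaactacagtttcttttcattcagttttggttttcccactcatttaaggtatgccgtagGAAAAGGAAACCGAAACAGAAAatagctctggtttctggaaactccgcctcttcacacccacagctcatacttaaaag

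The genes upstream of the members were measured with the same fit. Of 7 interferon genes looked up, 5 had 0 counts in every library. Ifnb1 had 2 counts in 1 library and Ifng, the interferon gamma gene, at most 4 counts in any of the 5 libraries where it was seen, so none could be tested. Of 41 receptor, kinase, factor, sensor and inhibitor genes and ligands listed, 33 were tested and edgeR called 0 in each of the 3 comparisons. At an unadjusted p under 0.05 there were 0 higher and 3 lower in WT_HFD_LNAME against WT_CD, 4 and 0 in KO_HFD_LNAME against WT_HFD_LNAME, and 4 and 2 in KO_HFD_LNAME against WT_CD. Of all tested genes, 9.13% were higher and 5.98% lower at that threshold in the first comparison, 3.25% and 1.87% in the second and 8.55% and 4.75% in the third. DESeq2 called 0 higher and 1 lower, 0 and 0, and 2 higher and 0 lower in the same order, against the backgrounds of DESeq2 calls given above. The median log2 fold changes were -0.05, 0.10 and 0.04, where those of all tested genes were -0.03, -0.01 and -0.04.

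Trex1, an exonuclease that removes cytosolic DNA, had 20.9, 22.0, 17.6 and 24.5 CPM in WT_HFD_LNAME, against 33.9, 29.4, 27.2 and 27.1 CPM in WT_CD. The groups did not overlap (log2 fold change -0.47, SE 0.12, adjusted p = 0.0877 in edgeR and 0.0318 in DESeq2). Pias1, a SUMO ligase gene, had a log2 fold change of -0.48 (SE 0.17, adjusted p = 0.212) in the same comparison. Socs3, a feedback inhibitor of JAK signalling, had 16.3, 11.6 and 19.9 CPM in KO_HFD_LNAME, against 6.07, 6.87, 10.1 and 8.01 CPM in WT_HFD_LNAME. Every knockout library was above every WT_HFD_LNAME library, and WT_CD spanned 7.77 to 17.9 CPM. The log2 fold change was 1.03 (SE 0.30, adjusted p = 0.762). Irf5, a factor of myeloid and B cells, had a log2 fold change of 0.72 (SE 0.22, adjusted p = 0.762) in KO_HFD_LNAME against WT_HFD_LNAME.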

How the data were processed

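RNA was sequenced from 11 aorta libraries; per the labels' protocols, RNA came from a TRIzol extraction and the library kit was NEBNext Ultra II RNA. The authors deposited raw whole-number counts for each gene. The authors' tools, per the submitters' processing notes, were Trimmomatic 0.39, HISAT2 2.2.1, featureCounts 2.0.3 and DESeq2 (Galaxy version 2.11.40.7) with GRCm38/mm10; strand setting, treatment of reads with several alignments and annotation are not given in the sources used here. The authors also deposited log2 fold changes with p-values and adjusted p-values for the 2 main comparisons, apparently shrunken; the model is not given in the sources used here. In the same tables the authors deposited a signal per gene (the mean of normalized counts, not used here) and, as score columns, the standard error and the Wald statistic of the fold change.

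Counts were analysed in R 4.3.3 with edgeR 4.0.16 (filterByExpr, 14303 of 27179 genes; TMM factors 0.814 to 1.15; robust glmQLFit with 1 mean per group over all 11 libraries; two-sided glmQLFTest; Benjamini-Hochberg over all tested genes; called under 0.05). Adjusted p-values are from edgeR unless DESeq2 (1.42.0) is named. CPM uses TMM-scaled totals; TPM uses GENCODE M21 exon lengths of GRCm38.p6. Intervals are 95%. The fit was also run on simulated counts with 200 changed genes. Those counts were drawn from its own means and spreads, so they carry no shared shifts of tissue mix or RNA shares between libraries.

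The members, the 2 other lists and the markers were chosen with earlier results of these data known. Named members are those of the 6 smallest p-values in each main comparison, the highest CPM per role and the 4 widest ranges, with 2 genes of smallest p per comparison from each other list; Irf7, Ifi35, Trim30a, Ifih1, Dhx58, Zbp1, Ifitm2, Ifitm3, Tap1 and Psmb9 were added after their values were seen. Mnda, of the other interferon-stimulated genes, and Hbb-bt, of the erythroid markers, were not found by symbol. Alternatives were other scalings, filters and tools, single libraries and pairs left out, 2-group fits and a replicate block. Library totals of 8665970 to 15340700 set the counting precision.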

Additional observations from a re-analysis of the deposited data

Results flagged for a closer look

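Single values of 3 members stood apart from the other libraries of their group. Ifit1 in WT_CD 1 was 9.07 CPM, where the other chow libraries held 8.0 to 8.05 CPM. Ifit3b in WT_HFD_LNAME 4 was 8.49 CPM, where the other WT_HFD_LNAME libraries held 11.1 to 11.5 CPM. Psmb8 in WT_HFD_LNAME 3 was 47.8 CPM, where the others held 22.9 to 25.5 CPM. Each was picked because its gap to the nearest other library of its group of 4, divided by the range of the group, was past Dixon's 95% limit. Of 40 such groups of 4 values looked at, 3 held a value past that limit, and chance alone gives about 1 in 20 groups.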

How the results depend on the processing

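The median log2 fold change of the members kept its sign in all 21 alternatives of each comparison, with ranges of 0.09 to 0.41 for WT_HFD_LNAME against WT_CD, 0.04 to 0.41 for KO_HFD_LNAME against WT_HFD_LNAME and 0.25 to 0.49 for KO_HFD_LNAME against WT_CD. Leaving out single libraries gave 0.12 to 0.41, 0.04 to 0.37 and 0.30 to 0.49. In WT_HFD_LNAME against WT_CD, 212 genes were called over all genes, with 867 by DESeq2, 138 without the filter on low counts, 31 with only the compared groups fitted, 0 without both WT_CD 1 and 2 and 59 without both WT_HFD_LNAME 3 and 4, and 2 to 521 with single libraries left out. In KO_HFD_LNAME against WT_HFD_LNAME, 2 genes were called, with 38 by DESeq2 and 1 with only the compared groups, without both WT_HFD_LNAME 3 and 4, without both WT_HFD_LNAME 3 and KO_HFD_LNAME 1 and, chosen after seeing the data, without both WT_HFD_LNAME 2 and 3, and 1 to 3 with single libraries left out. In KO_HFD_LNAME against WT_CD, 45 genes were called, with 559 by DESeq2, 29 without the filter, 3 with only the compared groups, 4 without both WT_CD 1 and 2, and 4 to 102 with single libraries left out. Members called in WT_HFD_LNAME against WT_CD were 0 higher and 0 lower, with 3 and 1 by DESeq2, and 0 to 2 and 0 to 1 with single libraries left out, where Trim25 (adjusted p = 0.0424) and Cmpk2 (adjusted p = 0.0379) were called without WT_CD 3 and Isg20 without WT_CD 1. In KO_HFD_LNAME against WT_CD, DESeq2 called 2 members higher. DESeq2 also called 1 upstream gene lower in WT_HFD_LNAME against WT_CD and 2 higher in KO_HFD_LNAME against WT_CD, and of the other interferon-stimulated genes 3 higher and 1 lower, and 7 higher. With library sizes set without Rn45s and mitochondrial genes, 1 other interferon-stimulated gene was called higher in KO_HFD_LNAME against WT_CD, and leaving out single libraries gave 0 to 3 higher and 0 to 1 lower there, and 0 to 1 of each in WT_HFD_LNAME against WT_CD. The cause of these moves was not tested.

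Replicate numbers were not used as pairs in the main fit. Deviations of same-numbered libraries correlated at 0.38, -0.12, 0.59 and 0.005 in WT_HFD_LNAME against WT_CD. They correlated at -0.23, -0.21 and -0.07 in KO_HFD_LNAME against WT_HFD_LNAME, and at -0.12, 0.30 and 0.18 in KO_HFD_LNAME against WT_CD. Libraries of unlike number were not compared, so these values cannot tell whether equal numbers mark shared handling. With the replicate number as a block, 42, 1 and 13 genes were called in the 3 comparisons, and the members' median log2 fold changes were 0.24, 0.07 and 0.27. Mx1 (in 1 comparison) and Oas3 had no value in some alternatives because they failed the filter there. Levels near 3 counts, as for Oas3 and Mx1, were set by few reads.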

Other observations

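A wider list of other interferon-stimulated genes, chosen like the members with earlier results known, had 64 tested genes. In edgeR 0 were called in each direction in each of the 3 comparisons. At an unadjusted p under 0.05 there were 9 higher and 1 lower in WT_HFD_LNAME against WT_CD, 6 and 0 in KO_HFD_LNAME against WT_HFD_LNAME, and 15 and 1 in KO_HFD_LNAME against WT_CD. Of all tested genes, 9.13% were higher and 5.98% lower at that threshold in the first comparison, 3.25% and 1.87% in the second and 8.55% and 4.75% in the third. DESeq2 called 3 higher and 1 lower, 0 and 0, and 7 higher and 0 lower in the same order, where over all genes it called 4.41% and 0.828%, 0.108% and 0.134%, and 2.8% and 0.67%. The median log2 fold changes were 0.32, 0.15 and 0.44, where those of all tested genes were -0.03, -0.01 and -0.04.

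Ifi47, an interferon-gamma GTPase gene outside the 47 members, had 9.48, 8.56, 14.2 and 6.71 CPM in WT_HFD_LNAME, against 3.58, 4.60, 4.96 and 5.11 CPM in WT_CD. The groups did not overlap (log2 fold change 1.09, SE 0.25, adjusted p = 0.0559 in edgeR and 0.00449 in DESeq2). Ly6e, a surface protein gene that shapes viral entry, had 205, 211, 331 and 242 CPM in WT_HFD_LNAME, against 123, 109, 180 and 158 CPM in WT_CD, also without overlap (log2 fold change 0.79, SE 0.20, adjusted p = 0.0718 in edgeR). Cxcl10, a chemokine gene that draws T cells, had 2.54, 2.04 and 1.24 CPM in KO_HFD_LNAME, against 0.891, 0.470, 0.674 and 0.479 CPM in WT_HFD_LNAME and 0, 0, 0.375 and 0.140 CPM in WT_CD. The knockout libraries were above all others (log2 fold change against WT_HFD_LNAME 1.61, SE 0.56, adjusted p = 0.823 in edgeR). Epsti1 had 16.9, 3.40 and 7.90 CPM in KO_HFD_LNAME, against 2.43, 2.26, 4.13 and 1.51 CPM in WT_HFD_LNAME (log2 fold change 1.86, SE 0.52, adjusted p = 0.744 in edgeR). KO_HFD_LNAME 1, the highest library for Epsti1 and Cxcl10, was also the highest for the T and NK cell markers, whose part was not tested.

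Ube2l6, which encodes the enzyme that passes ISG15 to its ligase, was picked out after its values were seen because it shares the low WT_CD 1 of Isg20 and Rsad2. It had 36.4, 34.0, 30.5 and 32.7 CPM in WT_HFD_LNAME, against 26.1, 95.2, 68 and 83.2 CPM in WT_CD. WT_CD 1 lay below every WT_HFD_LNAME library and the other 3 chow libraries lay above them all (log2 fold change -1.03, SE 0.30, adjusted p = 0.12 in edgeR and 0.0328 in DESeq2).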
